A study of Mus musculus with 4 samples.

Results

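Early B cells carry on their surface a set of enzymes and antigens by which their stages are told apart, and 10 genes of this set were examined: the enzymes Alpl, Bst1, Enpep, Mme and Cd38 and the antigens Cd24a, Cd93, Spn, Cd22 and Cd72. Every probe set that the platform annotation gives to exactly 1 of these symbols was taken, which gave 15 probe sets for 9 genes, of 20393 probe sets and 12394 genes in all. No probe set was named Cd38 in the annotation used, so that gene was not analysed here. The genes were chosen by their differences between Cre-GFP and control on these same arrays, at least in part, so each such difference is given as a description, with no p-value.

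The arrays measured cultured mouse bone marrow cells. In the 2 Cre-GFP arrays the cells had received a retrovirus carrying Cre and GFP, meant to switch on the Mll-AF4 fusion of Mll-AF4stop knock-in mice, and in the 2 control arrays a GFP control retrovirus. Both groups shared the knock-in allele, a dose of 5-fluorouracil (5-FU) given 5 days before the marrow was taken, a sort for GFP 2 days after exposure to virus, and 14 days of culture in cytokines for lymphoid progenitors. The series' design text names the control virus MIG-Cre, against the sample labels, which were followed here, and an effect of Cre itself and one of the fusion cannot be told apart. The labels do not state whether the arrays came from separate mice or cultures, so the spread between arrays may be technical, and fewer cells of a type cannot be told apart from less RNA per cell. Values are log2 of the deposited RMA intensity, and differences are Cre-GFP minus control with limma's standard error (SE, n = 2 arrays per group).

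In the mouse, B cell precursors are ordered from pro-B to pre-B and immature cells partly by these proteins. Spn (CD43) and Cd93 (AA4.1) mark early precursors, and Spn is lost as cells become small pre-B cells. Cd24a (heat-stable antigen), Bst1 (BP-3) and Enpep (BP-1) are gained or rise through the pro-B and early pre-B stages. Cd72 is present along most of the B lineage and Cd22 becomes abundant later. The enzymes act on the outer face of the membrane, removing phosphate groups (Alpl), turning over NAD (Bst1) or trimming peptides (Enpep, Mme).

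Alpl and Bst1 stood far lower in the Cre-GFP cells, by 3.83-fold and 2.88-fold, and no other gene of the set differed by more than 0.24 on the log2 scale on its brightest probe set. Of the 9 genes, each taken by that probe set, 6 had a lower mean in Cre-GFP and 3 a higher one. Both Cre-GFP values lay under both control values for 5 genes (Alpl, Bst1, Enpep, Cd24a and Cd72) and over them for 2 (Mme and Spn), and the groups overlapped for 2 (Cd93 and Cd22). Over all genes 49.9% had a lower mean, 14.9% were lower without overlap and 15.2% higher without overlap. Of the 15 probe sets 7 were lower and 3 higher without overlap, against 14.6% and 15.4% of all probe sets. The median difference of the 9 genes was −0.19, against 0.00 over all genes. That median was −0.10 without control 1 and −0.26 without control 2. Among all 20393 probe sets, 0 (0.0%) passed an adjusted p of 0.05 in limma, 976 (4.79%) had an unadjusted p under 0.05, and 1 (0.0049%) passed after an ordinary two-sample test with the same adjustment. Without control 1, 25 probe sets passed in limma, and without control 2, 1 did.

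**Figure D1:**
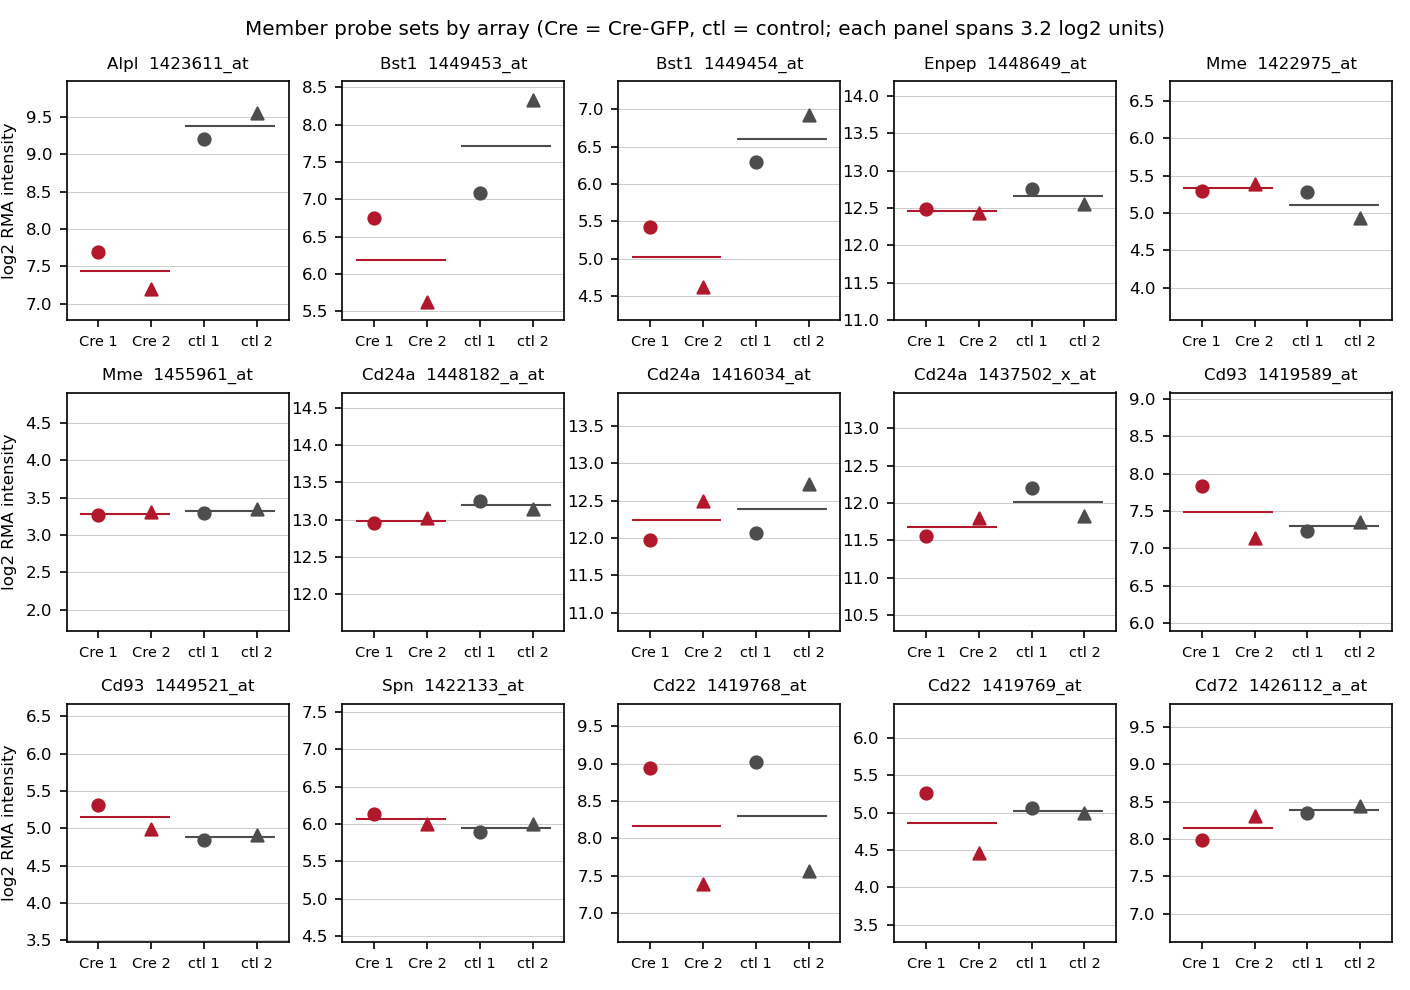
Log2 RMA intensity of each of the 15 probe sets on the 4 arrays, with Cre-GFP (Cre) in red left of control (ctl) in grey, circles for arrays numbered 1, triangles for arrays numbered 2 and a line at each group mean. Alpl and both Bst1 probe sets are clearly lower in Cre-GFP, while Cd22 on 1419768_at splits by array number inside each group.

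Alpl encodes tissue-nonspecific alkaline phosphatase, a membrane-anchored enzyme best known from bone. It read 7.69 and 7.20 in Cre-GFP 1 and 2, against 9.21 and 9.55 in control 1 and 2. Both Cre-GFP arrays lay below both control arrays, with 1.52 between the nearest arrays of the groups. The difference was −1.94 ± 0.23, and it was −2.18 to −1.69 when single arrays were left out. The genes on either side of Alpl in the RefSeq order showed no such difference. Rap1gap differed by −0.00 ± 0.15 and Ece1, an endothelin-converting enzyme, by −0.05 ± 0.14. Their means over the 4 arrays were 7.10 and 7.11, near the median of all genes (6.85). Whether these neighbours were expressed was not tested.

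The 2 annotated starts of Alpl are shown because this gene had the widest separation of the set. The sequences are from RefSeq (GRCm38.p6), run from 250 bases before to 50 after each start, lie on the minus strand of chromosome 4 (chr4:137796335-137796634 upstream and chr4:137766426-137766725 downstream), and have the searched motifs in capitals.
Alpl upstream start: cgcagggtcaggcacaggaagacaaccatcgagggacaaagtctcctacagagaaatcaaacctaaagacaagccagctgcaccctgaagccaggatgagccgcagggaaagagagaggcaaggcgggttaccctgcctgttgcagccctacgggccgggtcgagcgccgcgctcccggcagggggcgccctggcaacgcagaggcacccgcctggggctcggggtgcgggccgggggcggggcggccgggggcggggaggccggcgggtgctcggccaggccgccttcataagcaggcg
Alpl downstream start: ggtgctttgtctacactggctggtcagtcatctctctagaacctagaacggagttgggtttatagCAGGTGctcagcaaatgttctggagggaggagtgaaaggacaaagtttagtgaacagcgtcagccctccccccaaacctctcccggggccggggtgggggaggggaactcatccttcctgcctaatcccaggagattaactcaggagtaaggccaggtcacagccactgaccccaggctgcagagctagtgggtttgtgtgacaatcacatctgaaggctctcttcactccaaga
Motifs were searched on both strands: CAGGTG, an E-box bound by E proteins, CCCNNGGG, the core of the motif of the B cell factor EBF1, and GAGGAAGT, a site of PU.1. The upstream Alpl start held none of the 3, and 70.0% of its bases were G or C. The downstream start held CAGGTG 185 bases before it, with 54.3% G or C. The arrays do not tell which start was used.

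Promoters were listed for 7 of the 10 genes, those missing being Bst1, Cd24a and Cd93. CAGGTG lay in the promoters of Alpl and Cd22, CCCNNGGG in those of Mme, Spn and Cd22, and GAGGAAGT in that of Cd72, 49 bases before its start. Of all 32851 promoters of this length, 20.2% held CAGGTG, 13.7% CCCNNGGG and 3.2% GAGGAAGT. No motif found in the set overlapped another kind. Enpep and Cd38 held none of the motifs in this window. A match is a description of letters and says nothing about binding.

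Bst1 encodes CD157, an ecto-enzyme related to Cd38 that makes cyclic ADP-ribose from NAD and occurs on early B cells, stromal cells and myeloid cells. On 1449453_at it read 6.75 and 5.62 in Cre-GFP 1 and 2, against 7.08 and 8.33 in control 1 and 2. The groups did not overlap, but Cre-GFP 1 and control 1 lay only 0.34 apart. The difference was −1.53 ± 0.51, and leaving out Cre-GFP 2 or control 2 brought it to −0.96 or −0.90. Leaving out Cre-GFP 1 or control 1 brought it to −2.09 or −2.15. The other Bst1 probe set, 1449454_at, gave 5.43 and 4.62 in Cre-GFP 1 and 2, against 6.29 and 6.92 in control 1 and 2, a difference of −1.58 ± 0.32. Its nearest arrays were 0.87 apart, and the order of the 4 arrays was the same on both probe sets. On 1449454_at Cre-GFP 2 lay under the 20th percentile of its array, where RMA compresses differences, and raising dim values to that percentile gave −1.52. Bst1 and Cd38 are neighbours on chromosome 5. Fgfbp1, the next measured gene beyond Cd38, differed by −0.06 ± 0.09 but lay under the 20th percentile on every array. Cpeb2, the nearest measured gene on the other side, read 4.76 and 3.94 in Cre-GFP 1 and 2, against 4.63 and 5.07 in control 1 and 2. Its groups overlapped, with a difference of −0.50 ± 0.29. Apart from control 2, its values lay near or under the 20th percentile, so neither neighbour shows whether the Bst1 difference was shared.

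Enpep encodes aminopeptidase A, the BP-1 antigen used to separate late pro-B and pre-B cells from earlier ones. It was brighter than 99.0% of probe sets, with 12.49 and 12.44 in Cre-GFP 1 and 2, against 12.75 and 12.56 in control 1 and 2. The groups were apart by only 0.07, and the difference was −0.19 ± 0.13, or 1.14-fold lower. It was −0.10 without control 1 and −0.29 without control 2.

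Mme encodes neprilysin (CD10), a peptidase that marks early B cells in man. On 1422975_at it read 5.29 and 5.38 in Cre-GFP 1 and 2, against 5.27 and 4.94 in control 1 and 2. Cre-GFP 1 and control 1 were 0.02 apart, and the difference of 0.23 ± 0.14 was 0.06 without control 2 and 0.40 without control 1. After the arrays were centred on their medians, Cre-GFP 1 lay below control 1. On 1455961_at all 4 arrays lay between 3.26 and 3.36, under the 20th percentile of every array, so that probe set carried no usable level.

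**Figure D2:**
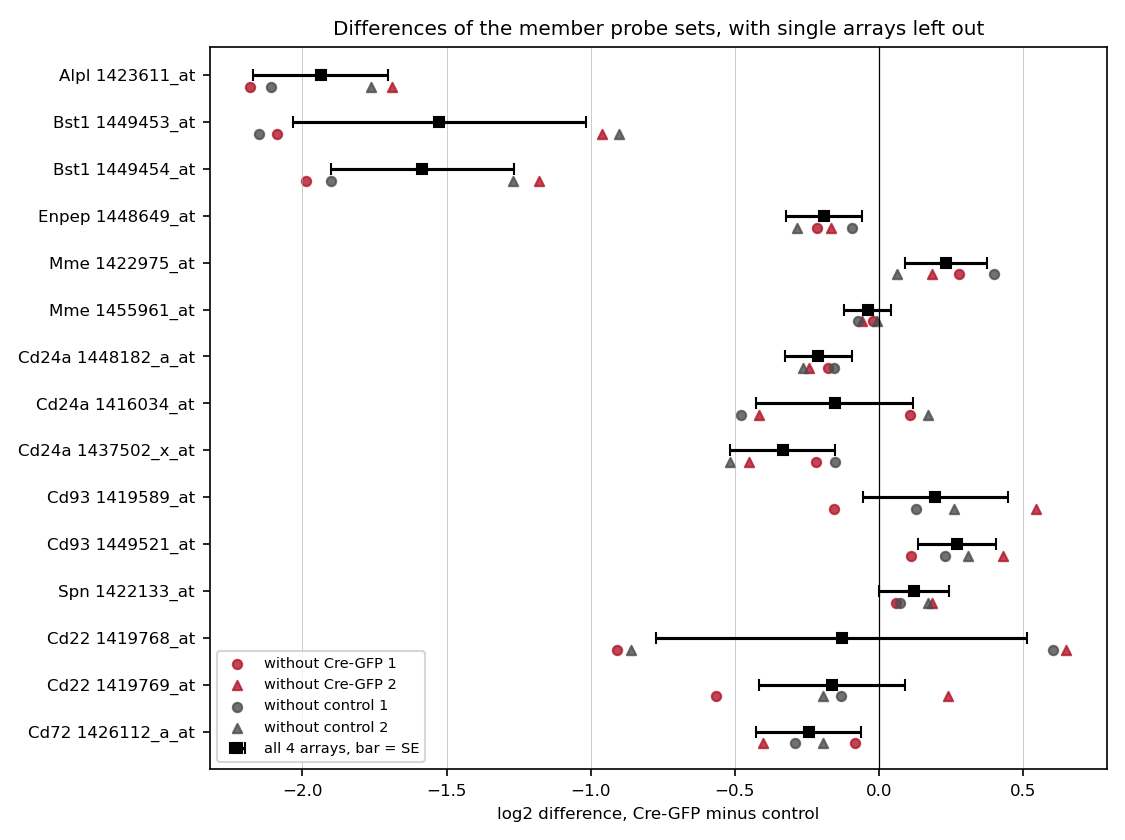
Log2 difference of each probe set, Cre-GFP minus control (black squares, bars are SE), with the value when 1 array is left out below it (red for a Cre-GFP array, grey for a control array). Alpl and Bst1 stay at −0.90 or lower in every setting, while Cd22, Cd93 on 1419589_at and Cd24a on 1416034_at change sign.

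Cd24a, a small sialoglycoprotein held in the membrane by a lipid anchor, was measured by 3 probe sets, all bright. The brightest, 1448182_a_at, read 12.96 and 13.02 in Cre-GFP 1 and 2, against 13.25 and 13.15 in control 1 and 2, a difference of −0.21 ± 0.12. On 1437502_x_at the values were 11.56 and 11.79 in Cre-GFP 1 and 2, against 12.20 and 11.83 in control 1 and 2, with 0.04 between the groups and a difference of −0.34 ± 0.18. By the ending of its name, 1437502_x_at can also bind related transcripts. On 1416034_at the values were 11.98 and 12.50 in Cre-GFP 1 and 2, against 12.07 and 12.72 in control 1 and 2. There the groups overlapped, arrays numbered 2 were above arrays numbered 1 in both groups, and the difference of −0.15 ± 0.27 was 0.11 without Cre-GFP 1 and 0.17 without control 2.

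Cd93, the receptor recognised by the AA4.1 antibody, also occurs on endothelium, stem cells and myeloid cells. On 1419589_at it read 7.84 and 7.13 in Cre-GFP 1 and 2, against 7.23 and 7.36 in control 1 and 2. Cre-GFP 1 was the highest and Cre-GFP 2 the lowest of the arrays, and the difference of 0.19 ± 0.25 became −0.16 with Cre-GFP 1 left out and 0.54 with Cre-GFP 2 left out. The dimmer 1449521_at read 5.31 and 4.99 in Cre-GFP 1 and 2, against 4.84 and 4.92 in control 1 and 2, a difference of 0.27 ± 0.14 with 0.07 between the groups. On both probe sets Cre-GFP 1 was the highest array. Thbd, the next gene to Cd93 in the RefSeq order, encodes thrombomodulin and had the same highest and lowest array, with 6.72 and 5.85 in Cre-GFP 1 and 2, against 6.22 and 6.13 in control 1 and 2. Nxt1, next to Cd93 on the other side, did not. It read 9.67 and 9.85 in Cre-GFP 1 and 2, against 9.82 and 9.90 in control 1 and 2, so Cre-GFP 1 was its lowest array.

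Spn, the sialomucin leukosialin or CD43, had linear intensities of 70.0 and 64.2 in Cre-GFP 1 and 2, against 59.7 and 63.8 in control 1 and 2. On the log2 scale the groups were apart by 0.01, less than the spread inside either group, and the difference was 0.12 ± 0.12. Leaving out Cre-GFP 1 gave 0.06 and leaving out control 1 gave 0.07.

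Cd22 and Cd72 are receptors that dampen B cell receptor signals through inhibitory tyrosine motifs in their tails. Cd22 is a sialic acid-binding lectin. On 1419768_at it read 8.94 and 7.39 in Cre-GFP 1 and 2, against 9.03 and 7.56 in control 1 and 2. The spread inside each group was wider than the difference between the groups: Cre-GFP 2 minus Cre-GFP 1 was −1.56 and control 2 minus control 1 was −1.46. The difference between groups was −0.13 ± 0.64. Leaving out Cre-GFP 1 gave −0.91 and leaving out Cre-GFP 2 gave 0.65. On the dimmer 1419769_at, Cd22 read 5.26 and 4.46 in Cre-GFP 1 and 2, against 5.06 and 4.99 in control 1 and 2. There the control arrays were close together, the low Cre-GFP 2 value lay under the 20th percentile of its array, and the difference was −0.16 ± 0.25. Mag, the gene next to Cd22, read 6.43 and 6.20 in Cre-GFP 1 and 2, against 6.53 and 6.52 in control 1 and 2, without a split of that size.

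Cd72, a lectin-like receptor for the semaphorin Sema4d, read 7.99 and 8.31 in Cre-GFP 1 and 2, against 8.34 and 8.44 in control 1 and 2. Cre-GFP 2 and control 1 were 0.04 apart. The difference was −0.24 ± 0.18, and it became −0.08 with Cre-GFP 1 left out and −0.40 with Cre-GFP 2 left out. Of the genes beside Cd72 on chromosome 4, Sit1, a transmembrane adaptor that dampens lymphocyte signals, read 5.52 and 5.95 in Cre-GFP 1 and 2, against 6.39 and 6.51 in control 1 and 2. Sit1 differed by −0.72 ± 0.17, and Tesk1, on the other side, by 0.37 ± 0.26.

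The spread inside the groups was read next. The median absolute difference between the arrays of a group was 0.32 in Cre-GFP and 0.19 in control over the 9 genes, against 0.16 in Cre-GFP and 0.15 in control over all genes. For Alpl and Bst1, Cre-GFP 2 was below Cre-GFP 1 while control 2 was above control 1, so the arrays numbered 2 lay farther apart than the arrays numbered 1. For Cd22 on 1419768_at both arrays numbered 2 were lower by a similar amount. Only 4 of 20393 probe sets, Cd22 included, had both arrays numbered 1 above their partner by as much, and 4 the reverse. The 5 genes with profiles nearest to Cd22, chosen after its values were seen, included Igf2r, Irf4 and Itpr2, at a root mean square distance of 0.19, 0.22 and 0.30 over 4 arrays. Irf4, a transcription factor of pre-B cells and plasma cells, read 9.08 and 8.02 in Cre-GFP 1 and 2, against 9.29 and 8.16 in control 1 and 2.

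**Figure D3:**
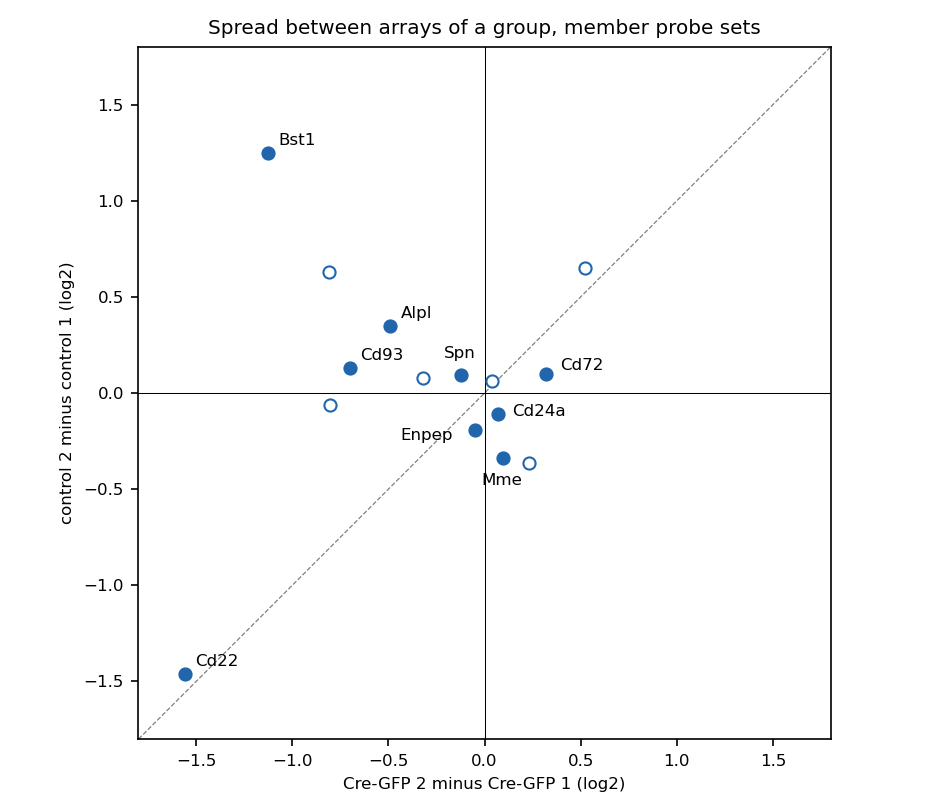
Array 2 minus array 1 within Cre-GFP (horizontal) and within control (vertical) for the 15 probe sets on the log2 scale, filled and named for the brightest probe set of a gene and open for the others; the dashed line marks equal shifts. Cd22 lies near the dashed line at −1.56 and −1.46, and Bst1 on the opposite side, at −1.13 and 1.25.

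The 5 genes with profiles nearest to that of Alpl, by root mean square distance over the 4 arrays after subtracting each gene's mean, were Ifi209, Capn2, Trib2, Cd79b and Ifi27l2a, at 0.10 to 0.30. Cd79b, a signalling chain of the B cell receptor, read 9.72 and 8.60 in Cre-GFP 1 and 2, against 10.46 and 11.27 in control 1 and 2, and Trib2, a pseudokinase, 5.99 and 5.00 in Cre-GFP 1 and 2, against 7.21 and 7.61 in control 1 and 2. With 4 arrays, likeness to Alpl is mostly likeness in the same contrast. Within the set, Bst1 was nearest to Alpl, at 0.44, and Cd22 farthest, at 1.17.

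The genes of B lineage identity were checked next to the set. All 9 measured genes of that list were lower in Cre-GFP, 6 of them without overlap, with a median of −0.40, which was −0.24 without control 2. The differences ranged between −1.70 for Cd79b and −0.07 for Pax5. Their summed linear intensity was 30760 to 30936 in Cre-GFP and 36273 to 40705 in control. Most of that sum came from Igll1 and Vpreb1, which also belong to the list of pro-B genes below. Igll1 and Vpreb1, the surrogate light chains of the pre-B receptor, were bright in all arrays, with 13.60 and 13.67 for Igll1 in Cre-GFP 1 and 2, against 13.82 and 13.83 in control 1 and 2. Ebf1, the B lineage transcription factor, differed by −0.51 ± 0.15, and by −0.55 and −0.38 on its other probe sets.

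Of 13 measured pro-B genes 3 were lower and 3 higher without overlap, with a median of 0.09, which was −0.03 without control 1. Of 18 measured surface genes of pre-B and later B cells 9 were lower and 1 higher, with a median of −0.27, which was −0.17 without Cre-GFP 2. The higher one, Cd83, and 1 of the lower ones, Cd55, were under the 20th percentile on every array. The lower ones also included Cd53, a tetraspanin, at −0.63 ± 0.24, and Cd1d1, a lipid-presenting molecule, at −0.54 ± 0.16. The difference between these lists was not tested. Within the set, the differences of Spn and Cd93, which mark early precursors, were 0.12 ± 0.12 and 0.19 ± 0.25. The Spn groups were apart by only 0.01, at a level under the median of all genes. Those of Cd93 overlapped, and its difference was −0.16 without Cre-GFP 1. The differences of Bst1, Enpep and Cd24a, gained or rising through the pro-B and early pre-B stages, were −1.53, −0.19 and −0.21, and Cd24a overlapped on 1416034_at. Cd22, abundant later, differed by −0.13 with overlap, and Cd72 and Mme by −0.24 and 0.23. A difference by stage within the set was not tested.

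Of 19 measured surface enzymes and related molecules of leukocytes, 4 were lower and 1 higher without overlap, with a median of −0.05 and a range of −0.80 to 0.31. Leaving out Cre-GFP 1 or control 2 brought that median to −0.10 or −0.09. Among the lower ones, Vnn1 and Aoc3 were under the 20th percentile on every array, as was Car4, which overlapped. With dim values raised to that percentile, 2 genes were lower and 1 higher without overlap, and the median was 0.00. Dpp4, a dipeptidyl peptidase also called CD26, read 9.50 and 9.34 in Cre-GFP 1 and 2, against 10.04 and 10.39 in control 1 and 2, a difference of −0.80 ± 0.19 and −0.83 on its other probe set. Adam10, a protease that sheds surface proteins, differed by −0.31 ± 0.22, overlapped between groups, and differed by −0.05 and −0.18 on its other probe sets.

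Of 14 measured inhibitory receptors and their effectors other than Cd22 and Cd72, 2 were lower and 2 higher without overlap, with a median of −0.05, which ran over −0.16 to 0.06 when single arrays were left out and was lowest with Cre-GFP 1 left out. The widest difference was that of Fcgr2b, the inhibitory Fc receptor of B cells, at 8.30 and 9.02 in Cre-GFP 1 and 2, against 10.79 and 10.25 in control 1 and 2. That difference was −1.86 ± 0.31, with −0.66 to −1.44 on its other probe sets. The phosphatases that such receptors recruit, Ptpn6 (−0.31 ± 0.36, and 0.01 on its other probe set) and Inpp5d (−0.08 ± 0.19, and −0.06 on its other probe set), overlapped between the groups. Ptpn11 differed by 0.15 ± 0.15, and by 0.03 on each of its other probe sets. Of 13 measured ligands and partners of the set, 3 were lower and 2 higher, with a median of 0.08 that was −0.05 to 0.04 when single arrays were left out. Among them Msn, which links Spn to the cell cortex, differed by −0.43 ± 0.17 and 0.01 on its other probe set, and St6gal1, which makes the sugar bound by Cd22, by 0.15 ± 0.47 and −0.08 on its other probe set. With any single array left out, the shares of all genes without overlap were 28.6% to 36.6% lower and 27.6% to 38.7% higher, so counts over 3 arrays are not comparable with those over 4.

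**Figure D4:**
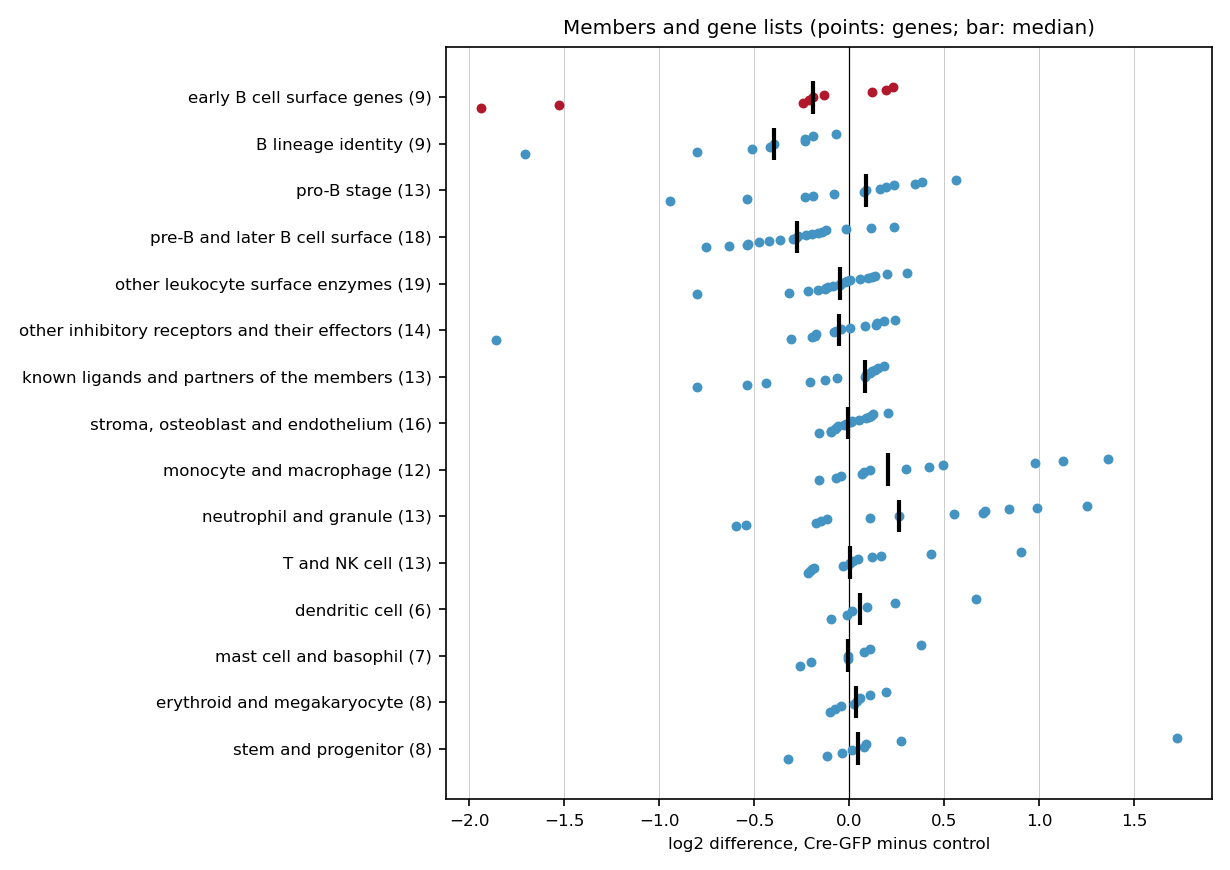
Log2 difference, Cre-GFP minus control, of each measured gene (points) and the median (bar) for the early B cell surface genes at the top and for the 14 gene lists, with the number of genes in brackets. The early B cell surface genes have 2 points beyond −1.5 and a median of −0.19.

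Alpl, Bst1, Cd24a, Cd93 and Spn also occur outside the B lineage, so markers of other cells were read beside them. Of 16 stroma, osteoblast and endothelium genes 0 were lower and 3 higher without overlap, their summed linear intensity was 791 to 845 in Cre-GFP and 799 to 835 in control, and Col1a1, Col3a1, Cxcl12, Ibsp, Cdh5 and Tek were under the 20th percentile on every array. Of 12 monocyte and macrophage genes 0 were lower and 4 higher, with sums of 4032 to 6024 in Cre-GFP and 1746 to 3569 in control, and a median of 0.21 that was 0.06 to 0.36 with single arrays left out, while Itgam and Fcgr1 were under the 20th percentile throughout. Of 13 neutrophil and granule genes 3 were lower and 4 higher, with sums of 3929 to 4630 in Cre-GFP and 1711 to 5481 in control, and their median of 0.26 was −0.21 without control 1. The lists of T and NK, dendritic, mast, red cell and platelet, and stem cell genes had medians of −0.00 to 0.06, and of −0.07 to 0.16 with single arrays left out. Single genes in them differed more. Of 8 stem cell genes 1 was lower and 2 higher without overlap, among them Meis1 at 1.73 ± 0.14. The lower one, Procr, was under the 20th percentile on every array. Of 13 T and NK genes 2 were lower and 3 higher, among them Cd28 at 0.90 ± 0.20. Of 6 dendritic genes 0 were lower and 3 higher, among them Bst2 at 0.67 ± 0.27. Of the higher ones, Ccr9 was under the 20th percentile on every array, and Itgax differed by only 0.10 ± 0.11. The part of monocytes, neutrophils or a smaller B cell share in the differences of the set was not tested.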

How the data were processed

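The authors deposited a table of RMA intensities on a linear scale for 22690 probe sets and 4 Affymetrix arrays, made from 20 ng of amplified total RNA per the labels' protocols; RMA is named, without a version, in the submitters' processing notes. It usually gives all arrays 1 distribution, which would hide a change common to the majority of genes. Median intensities were 85.1 to 87.7 per array, and having 2 arrays per group limits the precision.

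Values were put on the log2 scale without further normalization. The platform annotation gave 1 gene to 20393 probe sets, several to 691 and none to 1606; only the first kind was used, and 20364 matched RefSeq by gene number with 0 symbols changed. For each gene the probe set brightest on average stood for it. Differences and SEs came from limma 3.58.1 in R 4.3.3 (intensity trend, two-sided, Benjamini-Hochberg over all probe sets, threshold 0.05). A run on simulated data checked only that added differences were recovered on average, not the SEs or the calls. Groups do not overlap where both arrays of 1 group lie above both of the other. The genes of the set and the 14 lists were chosen with earlier results of these data known. Of 198 list memberships 169 were measured. The genes named included all of the set and up to 4 of each list by mean level. The 5 nearest profiles to the gene with the widest difference were also named. Other genes were chosen after their values were seen. These were Sit1, Tesk1, Rap1gap, Ece1, Fgfbp1, Thbd, Nxt1, Mag and Cpeb2 as neighbours, and the genes nearest to Cd22. They also included Cd28 and Pax5, each at the upper end of the differences in its list, and list genes named as dim on every array. Protein sequences were not used here.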

Additional observations from a re-analysis of the deposited data

How the results depend on the processing

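The median difference of the early B cell surface genes (−0.19) was −0.14 to −0.20 when dim values were raised to the 20th percentile, the dimmest 40% left out, the arrays centred or normalized again by quantiles, 16 added before the logarithm, probe sets averaged or shared probe sets left out, and −0.26 to −0.10 with single arrays left out. Shared probe sets here were those with names ending in _a_at, _s_at or _x_at, and the first ending need not mean binding to other genes. Without them the count of genes lower without overlap (5) was 3 of 8 measured, since Cd72 was then not measured and Cd24a overlapped. That count was 5 to 7 with single arrays left out. The count higher (2) was 1 without the dimmest 40%, where Mme was not measured, and with quantile normalization repeated, arrays centred on their medians or all probe sets averaged, where Mme overlapped, and 2 to 3 with single arrays left out. Among all probe sets 0 passed in limma, 1 by the ordinary two-sample test and 0 to 25 with single arrays left out. The arrays of both groups carry the numbers 1 and 2; same-numbered arrays deviated together (r = 0.36 across probe sets, which are not independent), but nothing in the labels pairs them. With the replicate number as a block the median is −0.19 by construction, since the block leaves each difference as it was, and 0 probe sets passed (1547 at an unadjusted p under 0.05). The cause of the shifts with a control array left out was not tested. With single arrays left out, the differences of Cd22, of Cd93 on 1419589_at and of Cd24a on 1416034_at changed sign. Of the medians and counts of the gene lists under these alternatives, 106 moved and 272 did not, a move being over 1 SD between arrays for a median and over 1.5 times for a count, and counts over 3 arrays are higher by construction. With 2 arrays per group, differences of the size of most of the set are within the spread.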
